A study of Mus musculus with 4 samples.

Results

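A set of 10 genes known from tissue-resident macrophages, which code for complement, scavenger and lipid-handling proteins, was followed in single pancreatic leukocytes: C1qa, C1qb, C1qc, Cd163, Folr2, Cd209b, Cd209f, Mrc1, Apoe and Trem2. They are 10 of the 31053 genes in the count tables, each with 1 row, and they were chosen by name. The cells were CD45+ leukocytes that flow cytometry had sorted out of pancreas tissue; the mice were pre-diabetic females aged 12 weeks. One library came from Ocabfl/fl mice, the control, and the other from Ocabfl/fl.CD4-Cre mice. Each library pooled 4 mice, so the mice of a group cannot be told apart and the genotypes have 1 library each. Both groups carried the floxed Ocab allele, which codes for a transcriptional coactivator of lymphocytes. Only the second carried CD4-Cre, a transgene known for recombination in T cells. The strain is not given in the sources used here. Lymph node T cell libraries of the same genotypes, from mice aged 8 weeks with 5 mice pooled in each, were used only as a check outside the pancreas.

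A barcode entered the description when it held at least 5 unique molecular identifiers (UMIs, counted once per captured molecule) of Lyz2, the myeloid lysozyme gene, or at least 5 of C1qa, C1qb and C1qc summed. This gate took 394 of 4014 kept barcodes in the control library and 385 of 6283 in the CD4-Cre library. It was divided by the summed C1q count into C1q low (0 to 4, entered on Lyz2), C1q intermediate (5 to 49) and C1q high (50 or more). The C1q genes set the gate and these classes, and Folr2 was used to divide the C1q-high barcodes, so their values across those divisions are a description. No test between genotypes was possible with 1 library in each. Levels are therefore given as UMIs of the summed barcodes scaled to a common total (CPM) with exact Poisson 95% intervals, and shares of barcodes with exact Clopper-Pearson 95% intervals. Both cover counting error only and say nothing of the spread between mice.

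C1q is the recognition subunit of the classical complement pathway. It is built from A, B and C chains, coded by C1qa, C1qb and C1qc, and unlike most complement proteins it is made largely by macrophages. It binds immune complexes and dying cells and tags them for uptake. The scavenger receptor CD163 takes up haemoglobin bound to haptoglobin, and the mannose receptor, coded by Mrc1, takes up mannosylated glycoproteins. Cd209b and Cd209f code for C-type lectins related to human DC-SIGN. Folr2 codes for folate receptor beta. Apoe codes for a lipid carrier, and Trem2 for a receptor of lipids and lipoproteins. Resident macrophages of many tissues carry several of these genes together, whereas macrophages that arrived as monocytes often lack Folr2 and Cd163.

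All 10 are protein-coding genes in the GENCODE M21 annotation of GRCm38. The C1q genes lie side by side on the minus strand of chromosome 4, with C1qb at chr4:136880129-136886187, C1qc at chr4:136889804-136893065 and C1qa at chr4:136895917-136898803. Gaps of 3.62 and 2.85 kb separate them in that order. Cd209b (chr8:3917655-3926844, minus strand) and Cd209f (chr8:4102787-4105835, minus strand) belong to 1 gene cluster and are 176 kb apart. Cd163 lies at chr6:124304656-124330527 on the plus strand, Folr2 at chr7:101839988-101857194 on the minus strand, Mrc1 at chr2:14229392-14332057 on the plus strand, Apoe at chr7:19696109-19699188 on the minus strand and Trem2 at chr17:48346401-48354147 on the plus strand.

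The promoters printed here belong to members that were detected in the same barcodes: C1qb and C1qc, which are neighbours, and Folr2, Cd163 and Cd209f. Each is 300 bases, from 250 before the start site to 50 after it, 5′ to 3′ on the gene's own strand, from RefSeq on GRCm38.p6. Capitals mark a match, on either strand, to one of 3 motifs. GAGGAA is a core of PU.1 sites, TGCTGA is part of the site of Maf factors, and TATAAA is the TATA box.
C1qb, chr4:136886151-136886450, minus strand: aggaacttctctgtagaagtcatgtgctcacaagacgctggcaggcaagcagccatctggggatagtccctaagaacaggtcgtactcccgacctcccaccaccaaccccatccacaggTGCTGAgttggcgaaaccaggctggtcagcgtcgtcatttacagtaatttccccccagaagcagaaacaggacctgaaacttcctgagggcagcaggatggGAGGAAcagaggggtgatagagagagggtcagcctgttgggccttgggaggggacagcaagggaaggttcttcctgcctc
C1qc, chr4:136892865-136893164, minus strand: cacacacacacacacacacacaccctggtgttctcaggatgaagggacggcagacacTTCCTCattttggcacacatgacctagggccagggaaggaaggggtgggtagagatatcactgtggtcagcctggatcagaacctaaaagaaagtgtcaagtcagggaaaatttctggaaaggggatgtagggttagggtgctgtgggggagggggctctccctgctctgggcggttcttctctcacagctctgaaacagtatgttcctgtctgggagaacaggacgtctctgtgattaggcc
Cd163, chr6:124304401-124304700, plus strand: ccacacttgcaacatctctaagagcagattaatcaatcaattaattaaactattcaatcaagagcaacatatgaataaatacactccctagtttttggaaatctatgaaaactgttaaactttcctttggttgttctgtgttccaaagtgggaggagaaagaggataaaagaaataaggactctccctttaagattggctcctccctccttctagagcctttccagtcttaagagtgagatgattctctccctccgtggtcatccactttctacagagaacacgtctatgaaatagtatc
Folr2, upstream start site, chr7:101857141-101857440, minus strand: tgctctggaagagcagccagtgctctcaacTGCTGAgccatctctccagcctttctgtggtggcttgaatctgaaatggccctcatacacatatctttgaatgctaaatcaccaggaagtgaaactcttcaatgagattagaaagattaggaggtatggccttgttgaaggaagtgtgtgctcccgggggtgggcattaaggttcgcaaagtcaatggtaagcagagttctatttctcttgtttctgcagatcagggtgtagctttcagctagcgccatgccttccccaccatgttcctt
Folr2, downstream start site, chr7:101845282-101845581, minus strand: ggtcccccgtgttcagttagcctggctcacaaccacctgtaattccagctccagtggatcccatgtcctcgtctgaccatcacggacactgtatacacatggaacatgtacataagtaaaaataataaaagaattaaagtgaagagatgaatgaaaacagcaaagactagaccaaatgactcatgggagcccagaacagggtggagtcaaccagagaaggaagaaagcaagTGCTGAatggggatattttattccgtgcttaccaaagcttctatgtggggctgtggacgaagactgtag
Cd209f, chr8:4105715-4106014, minus strand: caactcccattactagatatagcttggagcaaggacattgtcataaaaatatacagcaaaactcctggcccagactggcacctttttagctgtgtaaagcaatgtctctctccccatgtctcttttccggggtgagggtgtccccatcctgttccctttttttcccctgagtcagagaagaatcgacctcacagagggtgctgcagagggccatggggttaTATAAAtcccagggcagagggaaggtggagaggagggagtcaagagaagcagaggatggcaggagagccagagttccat

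Promoters were found for 9 of the 10 genes, 12 promoters in all. C1qb held GAGGAA from 30 to 25 bases before the start site and TGCTGA from 131 to 126 bases before it. C1qc held the reverse complement of GAGGAA from 193 to 188 bases before the start. Both Folr2 start sites held TGCTGA, at 220 to 215 and at 19 to 14 bases before the start, while the Cd163 window held none of the 3 motifs. Cd209f held TATAAA from 29 to 24 bases before its start. GAGGAA lay in 6 of the 12 promoters, TGCTGA in 3 and TATAAA in 2. Over all 32851 promoters of the same length the shares were 28.3%, 19.5% and 13.6%. Among the printed windows no matches overlapped. A match describes the letters and is not evidence of binding, and a window without a match says only that these letters are not there.

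The kept barcodes held a median of 3599 UMIs in the control and 3625 in the CD4-Cre library, of 20807342 and 32798133 UMIs in all listed barcodes. The targeted gene Ocab, listed as Pou2af1, was at 5.39 CPM (3.95 to 7.19) in control T barcodes and 0.644 CPM (0.309 to 1.18) in CD4-Cre T barcodes, while B barcodes had 222 and 245 CPM. The reads come from the 5′ end of transcripts, and the place of the floxed part is not given in the sources used here. The 2 pancreas libraries shared 36 barcode names and none among barcodes with at least 5 C1q UMIs. Macrophage markers were found throughout the class. Csf1r, the receptor of the macrophage growth factor, had a UMI in 99.1% and 100% of C1q-high barcodes, Adgre1 (F4/80) in 84.1% and 85.6% and Cd68 in 94.7% and 94.8%. All C1q-high barcodes of both libraries fell in 2 clusters of the whole data. The C1q-low class was mixed: it held 71 neutrophil and 49 dendritic barcodes of 250 in the control and 34 and 64 of 250 in the CD4-Cre library. The C1q-high class was not free of lymphocyte RNA: 5 of 113 control and 15 of 97 CD4-Cre barcodes held at least 3 UMIs of the T cell genes Cd3d, Cd3e and Cd3g. The 6 genes of the macrophage list were all detected in both libraries, with summed levels of 2892 and 2332 CPM. The mast cell and basophil list was at 0 in both.

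**Figure D1:**
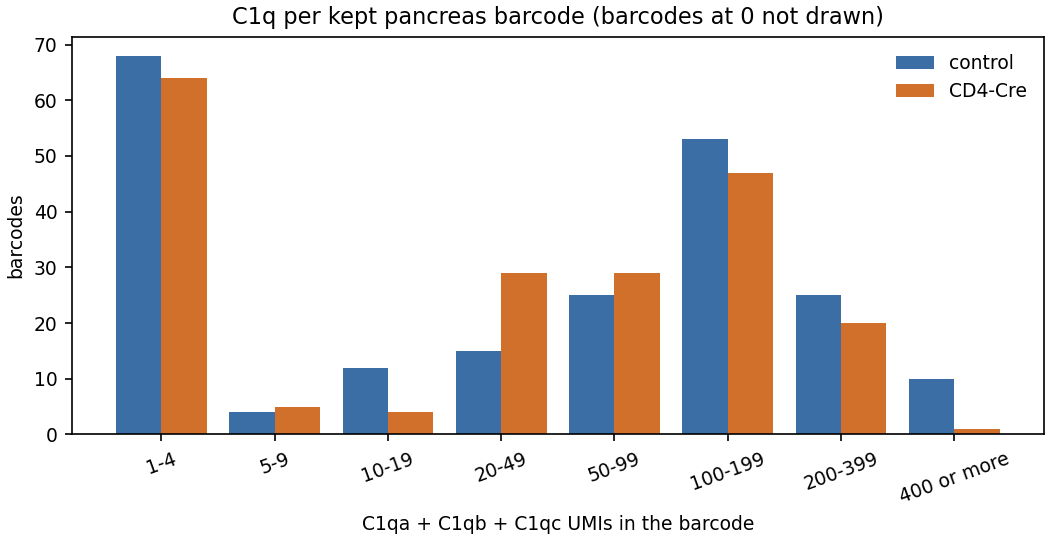
Kept pancreas barcodes by their summed C1qa, C1qb and C1qc UMIs (horizontal axis, bins of unequal width), with the number of barcodes on the vertical axis and 1 bar per library. Barcodes at 0 are left out: 3802 in the control and 6084 in the CD4-Cre library. The bin of 5 to 9 UMIs holds 4 and 5 barcodes, and the wider bin of 100 to 199 holds 53 and 47.

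Most barcodes had no C1q UMI, and most of those with at least 5 had 50 or more. A further 31 control and 38 CD4-Cre barcodes held 5 to 49. In the control library 3802 of 4014 barcodes had no C1q UMI and 68 had 1 to 4, whereas 113 had at least 50. Of 6283 CD4-Cre barcodes 6084 had none, 64 had 1 to 4 and 97 had at least 50. The C1q minimum was 5, with 4 and 5 barcodes at 3 or 4 UMIs and 2 and 4 at 5 to 7. Around the cut at 50 there were 6 and 7 barcodes at 40 to 49 and 5 and 9 at 50 to 59. These windows differ in width, so their counts do not show which cut is clearer. The 3 genes were detected together: 139 of 144 control barcodes with at least 5 C1q UMIs held all 3, as did 131 of 135 in the CD4-Cre library. Within C1q-high barcodes C1qa gave 36.7% and 35.9% of the C1q UMIs, C1qb 34.2% and 36.2% and C1qc 29.0% and 27.9%, in the control and CD4-Cre library.

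C1q-positive barcodes, with at least 5 UMIs, were 3.59% (3.03 to 4.21) of kept barcodes in the control and 2.15% (1.80 to 2.54) in the CD4-Cre library. The C1q-high share was 2.82% (2.33 to 3.37) and 1.54% (1.25 to 1.88). These intervals did not overlap. A share depends on all other sorted leukocytes in the pool, and fewer macrophages cannot be told apart from more of the rest. C1q-high barcodes were deep in both libraries, with medians of 9067 and 9629 UMIs and of 149 and 135 C1q UMIs.

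**Figure D2:**
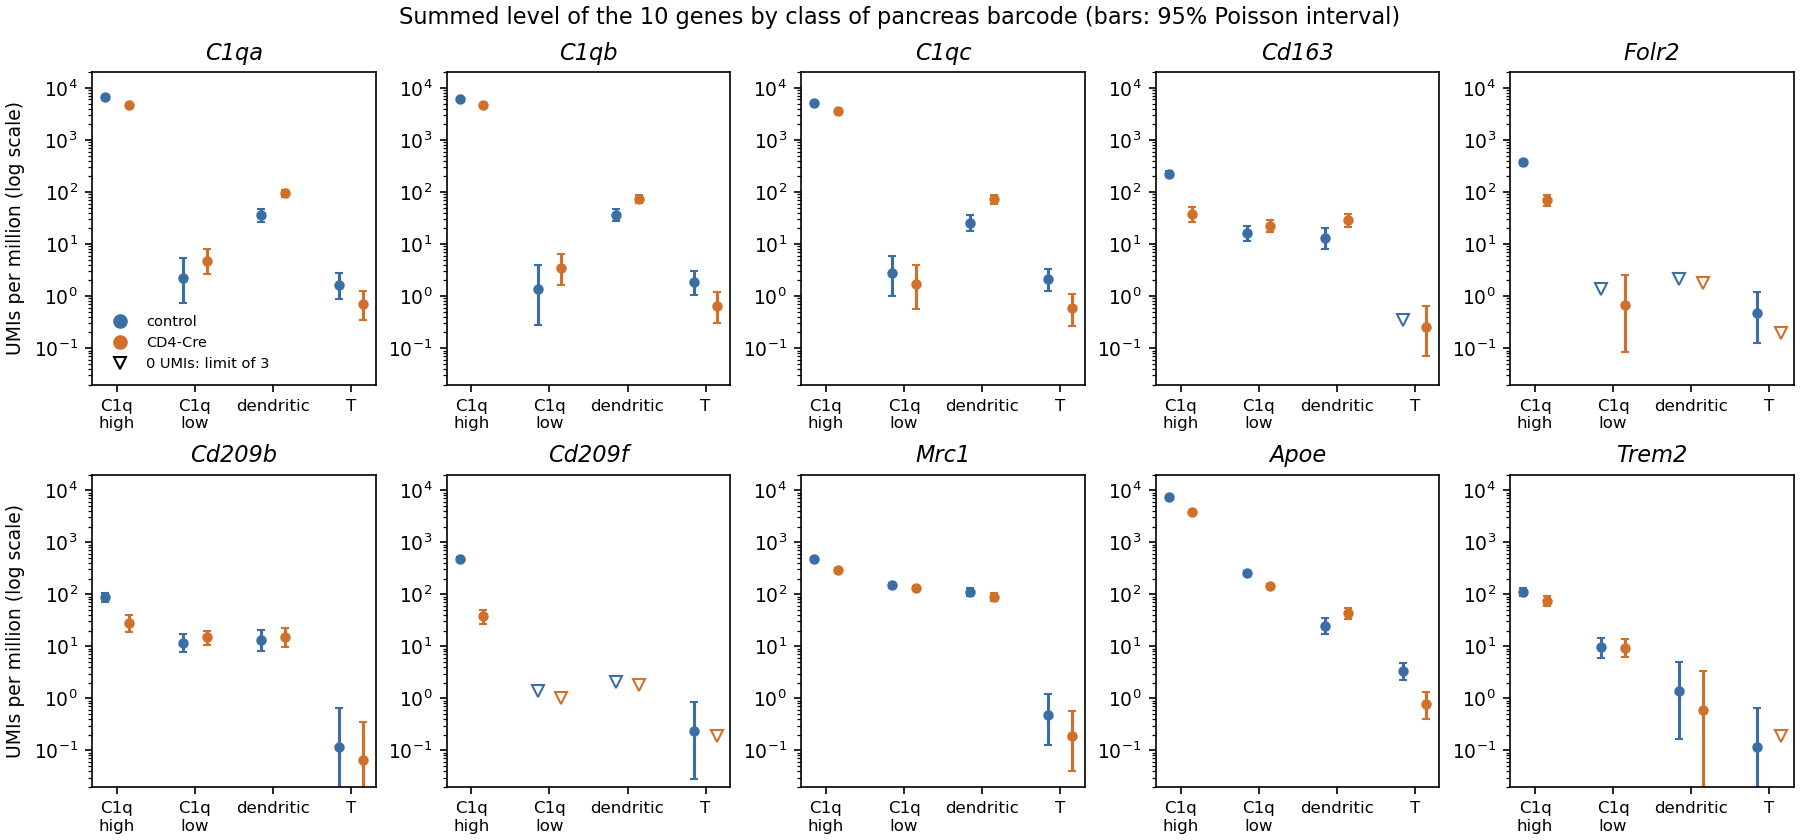
Summed level of each of the 10 genes in CPM (vertical axis, log scale) in 4 classes of pancreas barcode (horizontal axis), as points with 95% Poisson intervals for each library. Open triangles stand at the limit of 3 UMIs where none was counted. All 10 genes stand highest in C1q-high barcodes in both libraries.

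Every member had its highest level in C1q-high barcodes in both libraries among the C1q-high, C1q-low, dendritic and T classes, but the size of the step differed between genes. The exception among the settings tried was Cd209b in the CD4-Cre library, at 14.4 CPM against 15.1 CPM in dendritic barcodes once barcodes with lymphocyte markers were left out. Dendritic barcodes (at least 3 UMIs of 6 dendritic genes, more than of macrophage genes) and T barcodes (Cd3 genes without B or myeloid genes) served as background. Of the dendritic barcodes, 31 of 99 in the control and 45 of 116 in the CD4-Cre library fell in the cluster led by Lyz2, Retnla and Cd74. By its markers this cluster was named macrophage, and it also held C1q-high barcodes. A further 1 and 5 dendritic barcodes fell in the other macrophage cluster. Of all genes with at least 50 UMIs over both sides, 9.39% in the control and 6.81% in the CD4-Cre library were at least 2-fold higher in C1q-high than in dendritic barcodes, and 8.54% and 6.65% at least 2-fold lower. All 10 members reached 50 UMIs in the control and all were past 2-fold higher. Of the 9 that reached it in the CD4-Cre library, all but Cd163 and Cd209b were past 2-fold. Cd209f, with 41 UMIs against 0, was under the minimum. Against C1q-low barcodes, 6.86% and 3.96% of all genes were 2-fold higher and 8.75% and 4.7% lower. The same members were past 2-fold there, with Cd163 at a log2 ratio of 0.74 and Cd209b at 0.93 in the CD4-Cre library. For C1qa, C1qb and C1qc these steps follow from how the classes were made.

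The complement genes were low outside the class that they define. C1qa was at 6600 CPM in C1q-high and 35.4 CPM in dendritic barcodes of the control, and at 4668 and 94.1 CPM in the CD4-Cre library. Of the C1qa UMIs in dendritic barcodes, 49 of 51 and 155 of 156 lay in the few dendritic barcodes that were themselves C1q positive. In the other dendritic barcodes C1qa was at 1.42 and 0.653 CPM, a low level that follows from leaving out the C1q-positive ones. T barcodes, from which C1q-positive ones were not left out, had 1.64 and 0.708 CPM. C1qb and C1qc had the same form, with 1.88 and 0.644 CPM and 2.11 and 0.579 CPM in T barcodes. T barcodes of both libraries thus held C1q transcripts at 0.579 to 2.11 CPM.

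Folr2 and Cd209f were almost limited to C1q-rich barcodes. Folr2 was at 370.2 CPM (336 to 407) in C1q-high barcodes of the control and 69.4 CPM (54.7 to 86.9) in those of the CD4-Cre library. Dendritic barcodes of either library held no Folr2 UMI, where the limit of 3 UMIs stands for 2.08 and 1.81 CPM. T barcodes held 4 UMIs in the control, 3 of them in a C1q-positive barcode, and 0 in the CD4-Cre library. Cd209f was at 474 CPM (435 to 515) and 37.4 CPM (26.9 to 50.8) in C1q-high barcodes. No Cd209f UMI was found in C1q-low or dendritic barcodes of either library. C1q-high barcodes held 99.4% of the 543 Cd209f UMIs of the control library and all 41 of the CD4-Cre library.

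The scavenger receptors Cd163 and Mrc1 reached further. Cd163 was at 225 CPM (198 to 254) in C1q-high, 16.3 CPM in C1q-low and 13.2 CPM in dendritic barcodes of the control. In the CD4-Cre library the same classes had 37.4 CPM (26.9 to 50.8), 22.4 CPM (17.3 to 28.5) and 29.0 CPM (21.4 to 38.4), so that C1q-high and dendritic barcodes did not differ beyond counting error. The share of all Cd163 UMIs that lay in C1q-low barcodes was 12.1% of 298 in the control and 52.0% of 125 in the CD4-Cre library. Mrc1 was at 469 CPM in C1q-high, 148 CPM in C1q-low and 110 CPM in dendritic barcodes of the control. It was at 287, 131 and 89.3 CPM in the CD4-Cre library. C1q-intermediate barcodes stood between, with 235 and 206 CPM. T barcodes held 4 and 3 Mrc1 UMIs in all.

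Outside the C1q-positive barcodes, Cd163 and Mrc1 lay in dendritic barcodes and in others. C1q-low barcodes that were neither neutrophils nor dendritic cells held 180 of the 326 C1q-low Mrc1 UMIs of the control and 250 of 381 of the CD4-Cre library, and 17 of 36 and 20 of 65 of the Cd163 UMIs. Among dendritic barcodes that were not C1q positive, all 12 with Cd163 in the control and 19 of 20 in the CD4-Cre library also held Cd209a, the lectin gene of type 2 conventional dendritic cells. All 27 with Mrc1 in the control and all 40 in the CD4-Cre library did so too. Cd209a was in 50 of 96 and 53 of 110 of these barcodes. It is 1 of the 6 genes that defined the dendritic class. Cd163 and Mrc1 were found together in 11 of the 12 and 16 of the 20 Cd163 barcodes.

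The lipid genes Apoe and Trem2 set C1q-rich barcodes apart from dendritic ones. Apoe was at 7271 CPM in C1q-high, 256 CPM in C1q-low and 25.01 CPM in dendritic barcodes of the control, and at 3734, 146 and 42.8 CPM in the CD4-Cre library. A single barcode gave 88.9% and 53.5% of the dendritic Apoe UMIs, and without C1q-positive barcodes the dendritic level was 2.84 and 19.6 CPM. B barcodes held more Apoe than T barcodes, with 50.8 and 70.5 CPM after C1q-positive ones were left out, against 3.40 and 0.773 CPM. Trem2 was at 111 CPM (92.1 to 132) and 74.0 CPM (58.7 to 91.9) in C1q-high barcodes, with 9.52 and 9.30 CPM in C1q-low and 2 and 1 UMIs in all dendritic barcodes. The Trem2 UMIs of the C1q-low class all lay in barcodes that were neither neutrophils nor dendritic cells.

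Detection of Folr2 and Apoe is given here by the amount of C1q. In the control, Folr2 had a UMI in 24.0% of 25 barcodes with 50 to 99 C1q UMIs, in 47.2% of 53 with 100 to 199 and in 42.9% of 35 with 200 or more. CD4-Cre shares were 17.2% of 29, 19.1% of 47 and 33.3% of 21. Below 50 C1q UMIs, Folr2 was in 4 of 31 control and 2 of 38 CD4-Cre barcodes. From 50 C1q UMIs up, median depth also grew, from 6229 to 12166 UMIs in the control and from 8526 to 11203 in the CD4-Cre library, and its part in the detection shares was not tested. Apoe was in 80.0% and 62.1% of barcodes with 50 to 99 C1q UMIs and in 85.7% of those with 200 or more in either library. From 50 C1q UMIs up, the intervals of the bins overlapped for both genes in each library.

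Folr2 marked a part of the C1q-high barcodes, larger in the control library. It had a UMI in 46 of 113 control barcodes, 40.7% (31.6 to 50.4), and in 21 of 97 CD4-Cre barcodes, 21.6% (13.9 to 31.2). With every barcode thinned to 2000 UMIs the shares were 31.0% (22.6 to 40.4) and 9.28% (4.33 to 16.9), and none was too shallow. Thinned dendritic barcodes held Folr2 in 0 of 98 and 0 of 114, where a limit of 3 barcodes stands for 3.06% and 2.63%. Counts of at least 5 Folr2 UMIs were found in 27 control and 5 CD4-Cre barcodes. Of the Folr2-positive barcodes, 39 of 46 and 20 of 21 fell in the cluster led by Lyz2, Retnla and Cd74. Of the Folr2-negative ones, 55 of 67 and 53 of 76 fell in the other.

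**Figure D3:**
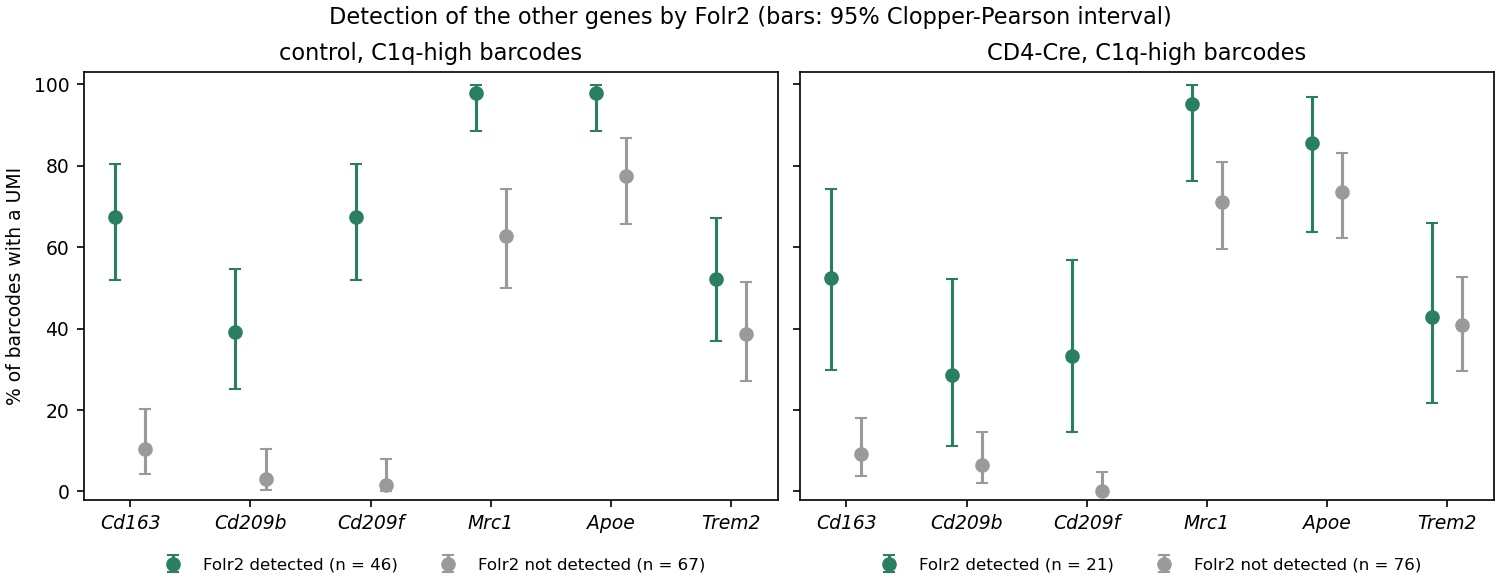
Share of C1q-high barcodes with a UMI of each gene (vertical axis, percent) where Folr2 was detected and where it was not, for the control (left) and CD4-Cre library (right), with 95% Clopper-Pearson intervals. Intervals of the 2 classes do not overlap for Cd163, Cd209b, Cd209f, Mrc1 and Apoe in the control and for Cd163 and Cd209f in the CD4-Cre library. For Trem2 they overlap in both.

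Cd163, Cd209b and Cd209f were found mostly where Folr2 was. In the control, Cd163 had a UMI in 31 of 46 Folr2-positive barcodes, 67.4% (52.0 to 80.5), and in 7 of 67 Folr2-negative ones, 10.4% (4.30 to 20.3). In the CD4-Cre library it was in 11 of 21, 52.4% (29.8 to 74.3), against 7 of 76, 9.21% (3.78 to 18.1). Cd209f was in 67.4% of Folr2-positive and 1.49% of Folr2-negative barcodes of the control. In the CD4-Cre library it was in 33.3% and in 0 of 76, with an upper limit of 4.74%. Cd209b was in 39.1% (25.1 to 54.6) against 2.99% (0.364 to 10.4) in the control and in 28.6% (11.3 to 52.2) against 6.58% (2.17 to 14.7) in the CD4-Cre library. The last 2 intervals overlap. After thinning to 2000 UMIs the Cd163 share was 52.2% against 1.49% in the control and 23.8% against 2.63% in the CD4-Cre library. The CD4-Cre values rest on few barcodes: the thinned Cd163 difference of 21.2 percentage points was 8.60 with doublets kept and 6.82 with 2 times the doublets removed. The thinned Cd209b difference of 8.21 points was 0 without barcodes that held lymphocyte markers and -1.11 with doublets kept.

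Mrc1 and Apoe were common in both Folr2 classes and more so with Folr2. Mrc1 was in 97.8% against 62.7% in the control and 95.2% against 71.1% in the CD4-Cre library. Its level was 900 against 218 CPM in the control, a log2 ratio of 2.05 (1.77 to 2.32), and 445 against 233 CPM in the CD4-Cre library, 0.94 (0.60 to 1.27). Apoe was at 12717 against 4106 CPM, 1.63 (1.57 to 1.70), and at 5129 against 3259 CPM, 0.65 (0.56 to 0.75). Trem2 shares had overlapping intervals: it was in 52.2% against 38.8% of control and 42.9% against 40.8% of CD4-Cre barcodes. After thinning to 2000 UMIs the Trem2 shares were 23.9% against 20.9% and 23.8% against 22.4%, differences whose sign changed between settings. Its level, at 129 against 99.9 CPM in the control and 39.5 against 85.7 CPM in the CD4-Cre library, had log2 ratios of 0.37 (-0.17 to 0.90) and -1.12 (-2.18 to -0.19). C1q itself differed less between the classes than Mrc1 and Apoe did. In the control the log2 ratios were 0.28 (0.22 to 0.35) for C1qa, 0.10 (0.03 to 0.17) for C1qb and 0.38 (0.30 to 0.45) for C1qc. They ranged from -0.16 to -0.05 in the CD4-Cre library. Median depth was 8293 and 9709 UMIs with and without Folr2 in the control, and 11411 and 9185 in the CD4-Cre library.

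Folr2, Cd163 and Cd209f were most often found all together or not at all in control barcodes. All 3 were in 26 of 113, 23.0% (15.6 to 31.9), and none in 59, 52.2% (42.6 to 61.7). Folr2 alone was in 10, Cd163 alone in 7 and Cd209f alone in 1. No barcode of either library held Cd163 and Cd209f without Folr2. In the CD4-Cre library all 3 were in 4 of 97, 4.12% (1.13 to 10.2), and none in 69, 71.1% (61.0 to 79.9). Within the pair of lectin genes, Cd209f was in 16 of the 20 control barcodes with Cd209b and in 3 of the 11 CD4-Cre barcodes.

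Other genes separated the Folr2 classes in the same direction in both libraries. Of 4979 genes with at least 50 UMIs in C1q-high barcodes, 2.21% were at least 2-fold higher with Folr2 in both libraries and 2.35% at least 2-fold lower. Of the 6 members that the rule did not use, Cd163, Cd209b and Cd209f were past 2-fold higher in both, on 41, 31 and 41 UMIs in the CD4-Cre library, under the minimum of 50 there alone. Mrc1 and Apoe were so in the control alone, and Trem2 was past 2-fold lower in the CD4-Cre library alone. Whether these differences between libraries exceed the spread between mice could not be tested. Ranked by the smaller of the 2 ratios, the 10 highest after Folr2 were Lyve1, Cd209f, Fcna, Cd209g, Ednrb, Cbr2, Ltc4s, C4b, Hal and Tbc1d4. Lyve1, a hyaluronan receptor, was in 35 of 46 Folr2-positive and 2 of 67 Folr2-negative control barcodes, and in 13 of 21 and 0 of 76 CD4-Cre barcodes. Fcna, which codes for ficolin A, a recognition protein of the lectin pathway of complement, was in 30 of 46 against 3 of 67 and in 10 of 21 against 2 of 76. C4b, complement component 4, had log2 ratios of 4.83 and 2.98. Ltc4s, the leukotriene C4 synthase gene, had 3.92 and 3.81.

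The 10 lowest genes were Cxcl13, Ccl4, Cxcl10, Mmp14, C3, H2-M2, Cxcl14, Gngt2, Il1rn and Olfml3. C3, the central complement component, was in 3 of 46 Folr2-positive and 25 of 67 Folr2-negative control barcodes, with a log2 ratio of -4.99, and in 0 of 21 and 23 of 76 CD4-Cre barcodes. C4b and C3 thus lay in opposite Folr2 classes. Mmp14, a membrane metalloproteinase, was in 1 of 46 and 26 of 67 control and in 1 of 21 and 19 of 76 CD4-Cre barcodes. Cxcl13, the first of the list, rested on 4 Folr2-negative barcodes in each library, and 1 barcode gave 81.4% and 62.4% of its UMIs. Cxcl10 lay in 12 and 6 Folr2-negative barcodes.

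The gene lists were chosen with earlier results of these data known, so the counts below are a description. A resident macrophage list, with the members left out, had 23 genes in the count tables. It holds Lyve1, Fcna, Ednrb, Cbr2 and Ltc4s, named above. Of the 23, 21 had at least 50 UMIs in the control, and 20 of these were 2-fold higher with Folr2. The list's median log2 ratio was 3.15, where all genes had -0.01. In the CD4-Cre library 13 of 19 were 2-fold higher and none lower, with a median of 1.46. Of all genes, 8.13% were 2-fold higher and 6.71% lower in the control, and 3.07% and 4.26% in the CD4-Cre library. Of the inflammatory list 7 of 9 genes were 2-fold lower with Folr2 in the control, where Ccl2 was 2-fold higher, and 6 of 8 were lower in the CD4-Cre library. Il1b, Ccl3, Ccl4, Cxcl9, Cxcl10 and Cxcl16 were lower in both. The 7 MHC class II genes were all below 0 in both, with medians of -0.82 and -0.38, and only Ciita, in the control, was past 2-fold. Of 14 genes of the complement list, 6 were 2-fold higher and 3 lower in the control, and 2 higher and 1 lower in the CD4-Cre library. C4b was higher and C3 lower in both. Of the lipid list 3 of 16 genes were higher and 4 lower in the control, and 1 of 17 higher and 4 lower in the CD4-Cre library, with Abca1, a cholesterol exporter gene, higher in both. Of the scavenger and phagocytic list 7 of 15 genes were 2-fold higher and 1 lower in the control, and 4 of 13 higher and 3 lower in the CD4-Cre library. Stab1, Gas6 and Clec10a belong to this list and to the resident list. The list of genes induced by tissue dissociation had no member past 2-fold in either library.

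Summed RNA of the exocrine pancreas was higher with Folr2. The summed level of 8 acinar genes (Prss2, Cela2a, Cela3b, Cpa1, Ctrb1, Pnlip, Try4 and Clps) was 4128 CPM with Folr2 and 702 CPM without it in the control, and 3315 and 768 CPM in the CD4-Cre library. T barcodes had 175 and 194 CPM. A single barcode gave 25.3% and 62.7% of these UMIs in the Folr2-positive class, and without it the levels were 3148 and 1289 CPM. RNA of 5 islet hormone genes went the other way in the share of barcodes with a UMI. It was 13.04% (4.94 to 26.3) with and 41.8% (29.8 to 54.5) without Folr2 in the control. In the CD4-Cre library it was 4.76% (0.120 to 23.8), 1 of 21 barcodes, and 21.1% (12.5 to 31.9), with intervals that overlap. In T barcodes the share was 1.39% and 1.04%. The part of exocrine and islet RNA in the Folr2 comparison was not tested. Their comparison between the Folr2 classes was added after the values were seen. The T cell list did not differ in 1 direction, with 76.4 and 44.4 CPM with and without Folr2 in the control and 126 and 149 CPM in the CD4-Cre library.

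**Figure D4:**
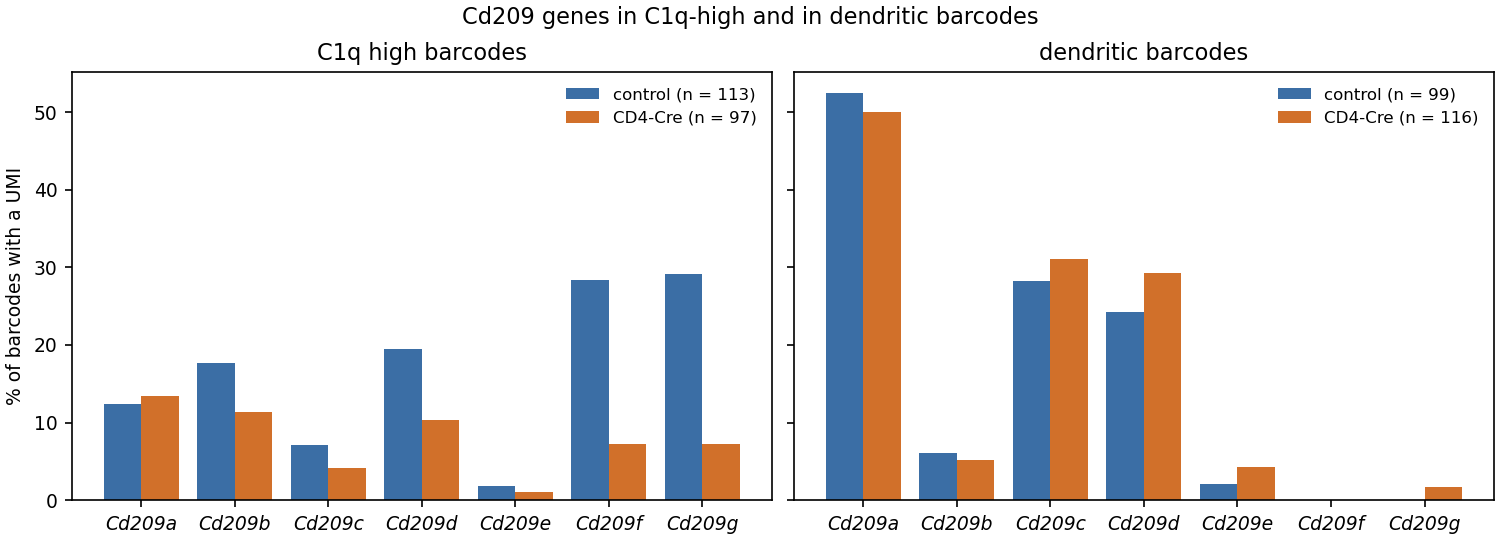
Share of barcodes with a UMI of each of the 7 Cd209 genes (vertical axis, percent) in C1q-high (left) and dendritic barcodes (right), with 1 bar per library and no intervals. Cd209f and Cd209g stand out in C1q-high barcodes of the control, at 28.3% and 29.2%, and Cd209a, Cd209c and Cd209d in dendritic barcodes. Cd209a is among the genes that defined the dendritic class.

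Cd209 genes differed in their shares of C1q-high and dendritic barcodes. In C1q-high barcodes Cd209f was in 28.3% and 7.22%, Cd209g in 29.2% and 7.22% and Cd209b in 17.7% and 11.3%, in the control and CD4-Cre library. Cd209a was in 52.5% and 50% of dendritic barcodes and in 12.4% and 13.4% of C1q-high ones. It is 1 of the 6 genes that defined the dendritic class, so its share there follows in part from that choice. Cd209c was in 28.3% and 31.0% of dendritic barcodes and in 7.08% and 4.12% of C1q-high ones. Cd209d was in 24.2% and 29.3% of dendritic and 19.5% and 10.3% of C1q-high barcodes. Cd209b was in 6.06% and 5.17% of dendritic barcodes. These are paralogs in 1 gene cluster, the treatment of reads that match several of them is not given in the sources used here, and the split between them is uncertain.

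**Figure D5:**
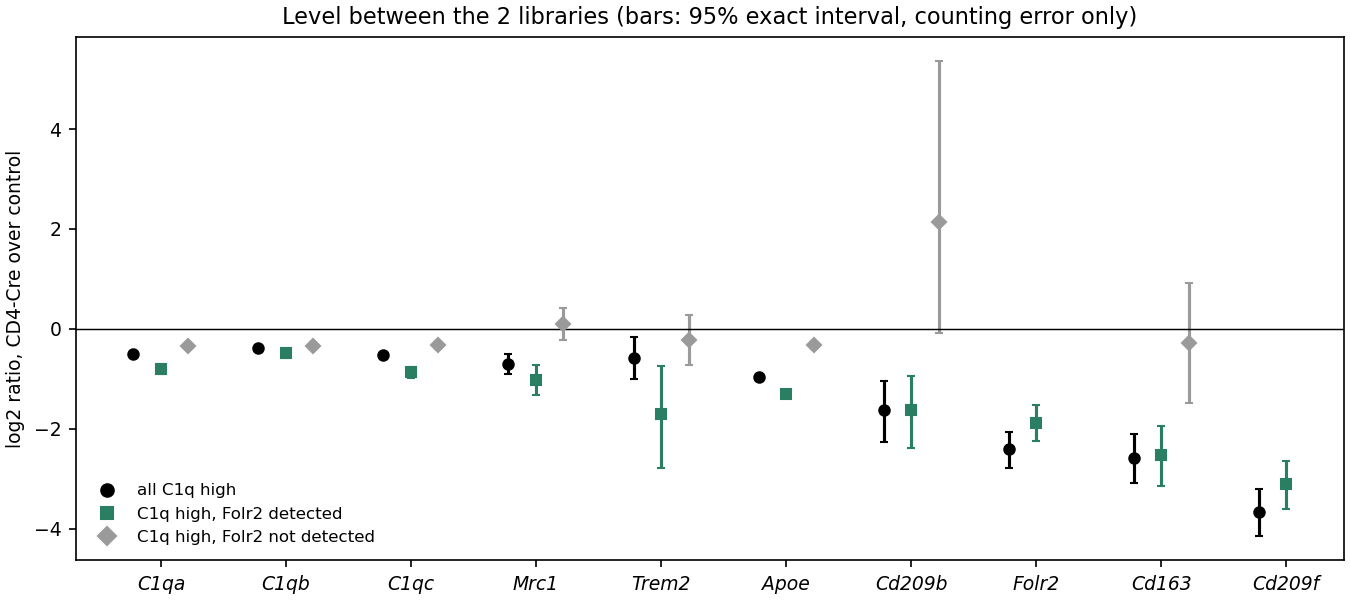
Log2 ratio of the summed level in the CD4-Cre over the control library (vertical axis) for each gene, in all C1q-high barcodes and in those with and without Folr2, with exact 95% intervals for counting error only. Ratios with 0 UMIs on a side are not drawn. In all C1q-high barcodes and in those with Folr2 every point lies below 0.

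Between the libraries, all 10 members were lower in C1q-high barcodes of the CD4-Cre library. Of 4979 genes, 2.19% were at least 2-fold lower and 1.35% at least 2-fold higher. Among members Cd209f, Cd163, Folr2 and Cd209b were past 2-fold lower, and 6 were not. The median over all genes was 0.01. Cd209f was at 474 CPM in the control and 37.4 CPM in the CD4-Cre library, 12.7-fold lower, with a log2 ratio of -3.66 (-4.16 to -3.20). Only 2 of the 4979 genes had a lower ratio. Its UMIs lay in 32 and 7 barcodes. Cd163 was at 225 and 37.4 CPM, -2.58 (-3.10 to -2.10), and Folr2 at 370.2 and 69.4 CPM, -2.42 (-2.79 to -2.06). Cd209b was at 87.7 and 28.3 CPM, -1.63 (-2.26 to -1.04), in 20 and 11 barcodes, and without the barcodes that held lymphocyte markers its ratio was -2.75. UMIs are summed over a class, so fewer cells with a gene and less RNA in each cannot be told apart from these ratios.

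The other members differed less. Apoe was at 7271 and 3734 CPM, -0.96 (-1.02 to -0.91), and Mrc1 at 469 and 287 CPM, -0.71 (-0.91 to -0.50). Trem2 was at 111 and 74.0 CPM, -0.58 (-1.001 to -0.17). C1qa was at 6600 and 4668 CPM, C1qb at 6156 and 4714 CPM and C1qc at 5220 and 3635 CPM, ratios from -0.52 to -0.38. The share of barcodes with Mrc1 was 77.0% and 76.3%, with Trem2 44.2% and 41.2%, and with Apoe 85.8% and 76.3%. Markers of other cells moved with genotype in this class. The 3 T cell genes were at 56.2 and 143 CPM with none at 0, the 4 B cell genes at 49.1 and 142 CPM with Ms4a1 at 0 in the control, and the 7 NK genes at 25.4 and 122 CPM with Ncr1, Gzma, Prf1 and Eomes at 0 in the control. The 7 monocyte genes were at 912 and 1205 CPM, in 67.3% and 91.8% of barcodes, with Chil3 at 0 in both. Without barcodes that held at least 3 UMIs of T or B cell genes, all 10 ratios stayed below 0. The part of the monocyte genes was not tested. The genotype and the library cannot be told apart.

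The ratios of Cd163, Mrc1, Trem2, Cd209b, Apoe and the C1q genes were lower where Folr2 was detected than where it was not. This difference between classes was not tested over mice. In barcodes without Folr2, Cd163 was at 19.4 and 15.9 CPM, a ratio of -0.29 (-1.49 to 0.91), Mrc1 at 218 and 233 CPM, 0.10 (-0.22 to 0.41), and Trem2 at 99.9 and 85.7 CPM, -0.22 (-0.72 to 0.27). In barcodes with Folr2, 46 in the control and 21 in the CD4-Cre library, Cd163 was at 578 and 101 CPM, -2.52 (-3.14 to -1.95), and Mrc1 at 900 and 445 CPM, -1.02 (-1.32 to -0.72). Trem2 was at 129 and 39.5 CPM there, -1.71 (-2.79 to -0.75), on 54 and 11 UMIs. Cd209b had the other direction without Folr2: it had 98 and 21 UMIs with Folr2, -1.63 (-2.39 to -0.94), and 2 and 10 UMIs without it, 2.14 (-0.09 to 5.37). Folr2 itself was at 1007 and 273 CPM in the barcodes it chose, -1.88 (-2.26 to -1.53). Cd209f was at 1268 and 147 CPM there, -3.11 (-3.60 to -2.65). Apoe was lower in both classes, at -1.31 with and -0.33 without Folr2. The C1q genes ranged from -0.87 to -0.49 with Folr2 and from -0.35 to -0.33 without it.

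The same order held per barcode. In Folr2-positive control barcodes Folr2 had a median of 7.67 and a highest value of 26.4 UMIs per 10000, against 2.20 and 18.6 in the CD4-Cre library. Cd163 had 3.91 and 24.7 against 0.610 and 4.63. Cd209f had 7.34 and 62.8 against 0 and 14.4. The ranges overlap for all 3.

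Outside the C1q-high class the direction varied between members and classes. In C1q-intermediate barcodes Apoe was at -1.05 (-1.33 to -0.78), Folr2 at -2.54 (-5.84 to -0.15) on 7 and 2 UMIs, C1qa at -0.30 (-0.54 to -0.06) and C1qc at -0.32 (-0.58 to -0.05). C1qb, Mrc1 and Trem2 were also below 0 there and Cd163 and Cd209b above it, with intervals that held 0, and Cd209f had 3 and 0 UMIs. In C1q-low barcodes Cd163 was at 16.3 and 22.4 CPM, 0.46 (-0.15 to 1.09), Cd209b at 11.8 and 14.8 CPM, 0.33 (-0.41 to 1.09), and Mrc1 at 148 and 131 CPM, -0.17 (-0.39 to 0.05). Apoe was lower there too, -0.81 (-0.996 to -0.63). In dendritic barcodes Cd163 was at 13.2 CPM (7.95 to 20.6) in the control and 29.0 CPM (21.4 to 38.4) in the CD4-Cre library, 1.13 (0.34 to 1.98), opposite to C1q-high barcodes. Some dendritic barcodes fell in the macrophage clusters, as given above, and their part in this difference was not tested.

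Counts over the lists are again a description, since the lists were chosen with earlier results known. Of the 23 genes of the resident macrophage list 22 had at least 50 UMIs in C1q-high barcodes. Of these, 15 were 2-fold lower and none 2-fold higher in the CD4-Cre library, with a median of -1.36. Of all genes 2.19% were lower and 1.35% higher. Lyve1 was in 37 of 113 control and 13 of 97 CD4-Cre barcodes, and Pf4, the gene of platelet factor 4, in 77 and 56. Of the complement list 3 of 14 genes were 2-fold lower, C4b and Cfb among them, and none higher, with a median of -0.46. Of the scavenger and phagocytic list 7 of 19 were lower and none higher, with a median of -0.40. In the lipid list Lpl, the lipoprotein lipase gene, was 2-fold higher and Cd63 2-fold lower of 18. Of the inflammatory list 1 of 10 was 2-fold lower, Il12b. The 7 MHC class II genes were within 2-fold, with a median of 0.10. In the dissociation list Nr4a1 was 2-fold higher of 14. Of 3 other Cd209 genes with enough UMIs, Cd209d and Cd209g were lower and Cd209a higher.

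Among genes with a UMI in both libraries, the 5 lowest in this comparison were Fscn1, Cd209f, Fcna, Cd209g and Ednrb. Fcna was in 33 control and 12 CD4-Cre barcodes, with a log2 ratio of -3.45, and Cd209g in 33 and 7, with -3.01. Fscn1 rested on 12 and 2 barcodes. The 5 highest were Nkg7, Cd79a, A530064D06Rik, Ltb4r1 and Lpl. Nkg7 and Cd79a are lymphocyte genes and lay in 3 and 9 and in 4 and 5 barcodes. Lpl was at 69.3 and 218 CPM, 1.65 (1.28 to 2.04), in 17 and 36 barcodes, and Ltb4r1, a leukotriene B4 receptor gene, at 17.5 and 92.2 CPM in 10 and 21.

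Over 16 points, made of 8 classes of barcode in each library, the genes whose log2(CPM + 10) followed that of the summed C1q genes most closely were Hal, Pf4, Fxyd2, Nceh1, Gna12, Apoe, Ms4a7, Cltc, C3ar1 and Sorbs3, with Pearson's r from 0.86 to 0.89. Some of these classes, such as C1q high and C1q low, were cut by C1q itself, so r follows in part from how they were made. The points also share libraries and depth, so r and this order are a description. Of the other members, Trem2 was number 20 in this order (r = 0.84) and Folr2 number 41 (0.80). Cd209f, Cd163, Mrc1 and Cd209b followed at 132, 144, 151 and 214. C3ar1, the receptor for the complement fragment C3a, was at 161 and 122 CPM in C1q-high barcodes and at 2.08 and 3.02 CPM in dendritic ones.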

How the data were processed

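The deposited files hold UMI counts per gene and barcode, which the authors made with Cell Ranger on mm10, per the submitters' processing notes, from 10x 5′ libraries, per the labels' protocols; the file headers give software version 3.0.0. Gene rows were matched by symbol. Barcodes with at least 500 genes and at most 10% mitochondrial UMIs were kept, and doublets were removed at 0.8% of barcodes per 1000, by a score against simulated pairs (164 and 388 pancreas barcodes). Counts were summed over barcodes of a class. Intervals (exact Poisson, Clopper-Pearson, exact conditional for ratios) are at 95%, and a count of 0 takes a limit of 3 UMIs. A fold was read for genes with at least 50 UMIs, as 2-fold or more. Clusters came from scanpy 1.11.5 (Leiden). Thinning drew 2000 UMIs per barcode. The scripts were tested on simulated data. edgeR 4.0.16 (TMM) and DESeq2 1.42.0 gave alternative library sizes only, with no test, since each genotype has 1 library. Members, lists and tests were chosen with earlier results of these data known. Named genes are the members, the 10 highest and lowest by Folr2, the 10 most like C1q and the 5 highest and lowest between libraries (immune receptor segments, haemoglobin and mitochondrial genes left out, and for Folr2 also exocrine and islet genes; between libraries at least 50 UMIs in the higher, 1 in the other and intervals that do not overlap), and genes of the lists. Alternative gates, cuts and doublet limits were tried. Exocrine and islet levels were added after values were seen. Values of some genes of the lists are not reported here.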

Additional observations from a re-analysis of the deposited data

Results flagged for a closer look

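Trem2 had opposite ratios between the Folr2 classes in the 2 libraries. Its log2 ratio of C1q-high barcodes with over without Folr2 was 0.37 in the control and -1.12 in the CD4-Cre library. The CD4-Cre value rests on 11 UMIs with and 70 without Folr2. The difference between libraries was not tested.

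C1q-positive barcodes also lay in the lymph node T cell libraries, which no comparison used: 4 of 2861 kept barcodes in the control and 5 of 5397 in the CD4-Cre library. In the control these held 57 Cd209b UMIs, all in 1 barcode, and 87 Apoe UMIs in 3 barcodes. In the CD4-Cre library they held 5 Apoe UMIs in 2 barcodes.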

How the results depend on the processing

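Of 25 other settings, not all of which bear on each result, those run on the ratios between libraries left all 10 members below 0 in C1q-high and in C1q-positive barcodes. All 10 stayed above the T level. All but Cd209b, as given above, stayed above the dendritic level. The log2 ratios in C1q-high barcodes ranged from -4.10 to -3.35 for Cd209f, from -2.95 to -2.31 for Cd163, from -2.76 to -2.23 for Folr2, from -2.75 to -1.35 for Cd209b and from -1.21 to -0.80 for Apoe. TMM and DESeq2 sizes shifted all genes by -0.011 and -0.024. With 2 times the doublets removed, the C1q-positive shares were 2.92% and 1.60%, the gate shares 8.51% and 4.92%, the C1q-high CD4-Cre share 1.23%, and 62 genes (117 before) were lower with Folr2 in both libraries. With no removal of doublets the CD4-Cre gate share was 6.93%. Without barcodes holding lymphocyte markers the gate shares were 8.50% and 4.66%, the CD4-Cre shares 1.66% (C1q positive) and 1.21% (C1q high), and 33 genes (67 before) were higher in the CD4-Cre library. A Lyz2 minimum of 1 gave gate shares of 14.1% and 8.99%. A C1q-high cut of 50 per 10000 UMIs gave 35 genes higher in the CD4-Cre library. Count minimums of 20 and 200 gave 226 and 8 genes higher and 323 and 35 lower in the CD4-Cre library, and 225 and 39 higher and 209 and 36 lower with Folr2 in both libraries, as more or fewer genes were counted. Otherwise the cause was not tested. The Trem2 difference between Folr2 classes in the CD4-Cre library went from 1.44 to -20.2 percentage points with deeper thinning. In that library the thinned differences of 33.8 points for Mrc1 and 23.8 for Cd209f had lowest values of 9.68 and 9.52 over the settings. Leaving out the top barcode of a gene or tissue list was added after the data were seen. No paired analysis was possible because each group has 1 library. The CD4-Cre values of Cd209f, Cd163 and Cd209b rest on 41, 41 and 31 UMIs, though C1q-high barcodes were no shallower there, with medians of 9629 against 9067 UMIs.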

Other observations

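The genes in this paragraph were chosen after their values were seen. Ccr2, a chemokine receptor gene of monocytes, was in 57.5% (47.9 to 66.8) of C1q-high barcodes of the control and 85.6% (77.0 to 91.9) of those of the CD4-Cre library. Among those with Folr2 it was in 41.3% of control and 85.7% of CD4-Cre barcodes, and among those without it in 68.7% and 85.5%. Retnla, a gene of alternatively activated macrophages, was in 38.1% (29.1 to 47.7) and 55.7% (45.2 to 65.8), in 63.0% and 90.5% of those with Folr2 and in 20.9% and 46.1% of those without it. Timd4, a phosphatidylserine receptor gene of long-lived macrophages, was in 18.6% and 15.5%. Of the barcodes with Timd4, 19 of 21 in the control and 6 of 15 in the CD4-Cre library held Folr2. Outside the C1q-high class, Ccr2 shares in the control and CD4-Cre library were 74.2% and 94.7% in C1q-intermediate and 52.4% and 68.8% in C1q-low barcodes. They were 58.6% and 68.1% in dendritic and 18.2% and 12.3% in T barcodes.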
